A study of Mus musculus with 35 samples.

Results

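RNA polymerase II (Pol II) was mapped by ChIP-seq in primary mouse bone marrow macrophages after 60 min of lipopolysaccharide (LPS) and in the same kind of cells without stimulation. The 3 Pol II lists of these 2 conditions were taken, A and B at 60 min of LPS and the only unstimulated list, A. They are 3 of the 7 Pol II libraries and 3 of all 35 libraries in the series, and they held 19016 of the 39395 Pol II regions. The 17060 regions up to 100 kb wide were joined wherever any of them overlapped, which gave 5516 joined regions.

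Both conditions used wild-type macrophages grown from the marrow of female C57BL/6 mice aged 8 to 12 weeks, and differed in the LPS alone as far as the labels say. Both shared the same antibody, clone CTD4H8 from Upstate, and the same fixation, sonication and 36-cycle single-end sequencing. The labels do not say whether the 2 libraries of 60 min came from separate animals or cultures, and the 3 libraries carry 3 different dates in their titles. With 1 unstimulated list, differences between LPS and no stimulation, between list dates and between single libraries cannot be told apart, and no test of the comparison exists. Read counts are not part of these lists. The depth of each library is therefore unknown, and a place absent from a list is called not listed. The labels say female, and 4 narrow joined regions on chromosome Y, each in a single 60 min list (2 in A and 2 in B) and none in the unstimulated list, fell among the regions called partial below. Regions were not assigned to genes here, because the gene table used here is on another genome build than the lists, and for the same reason no gene could be used to check the cell type. All positions are on mouse build mm9.

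Pol II is the enzyme that transcribes protein-coding genes. It often gathers at a start site before it is released into the gene body, so its ChIP signal can be a narrow peak at a start site or a broad stretch over a gene that is being read. LPS, from the outer membrane of Gram-negative bacteria, is sensed by Toll-like receptor 4 on macrophages and activates NF-κB, whose subunits include p50 and p65, and with it the transcription of inflammatory genes. The lists are multiscale: a narrow region can lie inside a wider one, and each region carries a scale number (column 4), where a higher number goes with a wider region, and a score from the authors that serves here only to rank regions within a list.

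The 60 min lists were shorter than the unstimulated one, and their regions were wider. They held 5519 regions in list A and 6061 in list B, against 7436 in the unstimulated list. Narrow regions made up most of the difference. Regions up to 1 kb numbered 1709 in list A and 1215 in list B at 60 min (31.0% and 20.0% of those lists), against 2885 in the unstimulated list (38.8%). Regions of 10 to 100 kb made up 25.98% of list A and 32.1% of list B at 60 min, against 21.8% of the unstimulated list. The median width among regions up to 100 kb was 2380 bp in list A and 4700 bp in list B at 60 min, against 1430 bp in the unstimulated list. Lists A and B at 60 min thus differed from each other by more than list A differed from the unstimulated list, so the shift in width was not larger than the spread between the 60 min libraries.

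The scale numbers showed the same order. Their median was 19 in list A and 20 in list B at 60 min, and 18 in the unstimulated list. Scales up to 13, whose median widths were 200 to 270 bp, held 14.4% of list A and 5.94% of list B at 60 min, against 17.98% of the unstimulated list. Scales 19 to 27, whose median widths were 13150 to 15440 bp, held 42.4% of list A and 52.5% of list B at 60 min, against 36.1% of the unstimulated list. Once regions of a list that overlapped were joined, list A covered 59.2 Mb and list B 79.2 Mb at 60 min, against 66.8 Mb in the unstimulated list, which lies between them. The width limit of 100 kb left out 578 and 657 regions of the 60 min lists, against 721 of the unstimulated list. The widest region kept was 99440 bp in list A and 99770 bp in list B at 60 min, against 99860 bp in the unstimulated list, and the narrowest left out was 100020 bp, 100260 bp and 100020 bp in the same order.

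**Figure D1:**
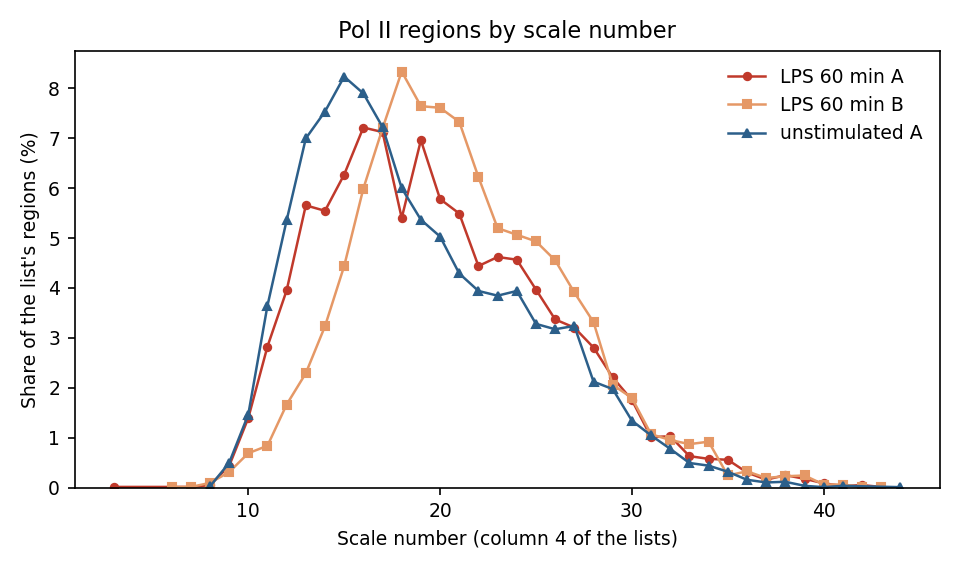
Share of each Pol II list's regions (vertical axis, %) by scale number (horizontal axis), all widths included, for LPS 60 min A (circles), LPS 60 min B (squares) and unstimulated A (triangles). LPS 60 min B sits furthest toward high scales with a median of 20, LPS 60 min A has a median of 19 and the unstimulated list 18.

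The 2 lists of 60 min were more like each other than either was like the unstimulated list. Their Jaccard index, the base pairs covered by both lists over those covered by either, was 0.554. It was 0.289 between list A at 60 min and the unstimulated list and 0.295 between list B at 60 min and the unstimulated list. Of the joined regions that list A held at 60 min, 76.9% were also held by list B, and 69.9% by the unstimulated list. Of those that list B held, 74.8% were also held by list A, and 64.5% by the unstimulated list. In the opposite sense, list A at 60 min held 47.4% and list B held 45.05% of the joined regions of the unstimulated list. Against the later lists, list A of 60 min had an index of 0.341 at 120 min, 0.314 and 0.333 with lists A and B of 240 min, and 0.203 with the 360 min list, which is the shortest Pol II list. List B of 60 min had 0.314, 0.311, 0.371 and 0.178 with the same 4 lists. The 2 lists of 60 min were therefore closer to each other than to any other Pol II list.

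More places dropped out of the lists than came in. A joined region was called gained when both 60 min lists and not the unstimulated list held it, lost when only the unstimulated list held it, held when all 3 did, and partial otherwise. Gained regions numbered 541, or 9.81% of the 5516 joined regions (95% Wilson interval 9.05 to 10.6%), and lost regions 1950, or 35.4% (34.1 to 36.6%). Held regions numbered 1637 (29.7%) and partial ones 1388 (25.2%). Wilson intervals here and below cover counting error over regions only, not variation between cultures. The rules for gained and lost are not equally strict, since a gained region needs 2 lists and a lost one needs 1. Taking 1 list against 1 list, list A at 60 min held 853 joined regions that the unstimulated list lacked and lacked 2191 that it held, and list B at 60 min held 1035 and lacked 2291. Between the 2 lists of 60 min 653 joined regions were in A and not in B, and 735 in B and not in A. Joined regions in a single list numbered 312 for list A and 494 for list B at 60 min, against 1950 for the unstimulated list.

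Lost regions were mostly narrow, and gained ones wide. The unequal rules enter this contrast, since regions in a single 60 min list were also narrower than gained ones by their medians. Those in list B alone were still wider than lost ones. The median width was 365 bp for the 312 regions in list A alone and 3835 bp for the 494 in list B alone. The median width was 20020 bp for gained regions (quartiles 3360 and 50840 bp), 910 bp for lost regions (330 and 7875 bp) and 31380 bp for held regions (10950 and 60830 bp). Regions up to 1 kb made up 44 of the 541 gained regions (8.13%) and 1016 of the 1950 lost ones (52.1%). Among joined regions over 30 kb the counts were nearly level, at 210 gained and 227 lost, while 844 were held. Between those classes, lost regions still outnumbered gained ones, with 278 lost for 86 gained at 1 to 3 kb, 214 for 71 at 3 to 10 kb and 215 for 130 at 10 to 30 kb. The excess of lost over gained regions thus narrowed with width, from 1016 lost for 44 gained in the narrowest class to near parity in the widest.

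**Figure D2:**
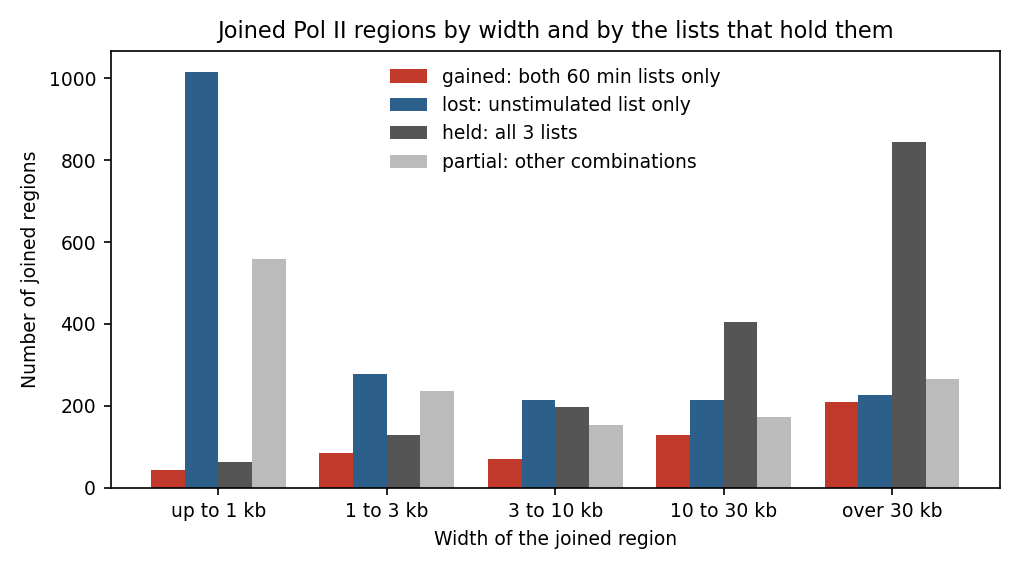
Number of joined Pol II regions (vertical axis) in 5 width classes (horizontal axis), with bars for gained, lost, held and partial regions. The narrowest class holds 1016 lost and 44 gained regions, and the class over 30 kb holds 210 gained, 227 lost and 844 held regions.

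The excess of lost over gained regions was spread over the genome. On all 20 chromosomes with a gained region, lost regions were more numerous, by 2.59 to 7.22 lost per gained region with a median of 3.56. The gained share of a chromosome's joined regions ran between 5.77% and 13.5%, and the lost share between 31.1% and 41.7%. Some regions of the same state lay near each other. Another gained region lay within 100 kb of 35.1% of the gained regions, and another lost region within 100 kb of 46.8% of the lost ones, and another held region within 100 kb of 39.1% of the held ones. What the density of regions alone would give was not computed. Such neighbours mean that regions are not independent counts.

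Being gained or lost depends on the list length and on the width limit. With every list shortened to its best-scored regions, as many as the shortest list holds, gained regions numbered 671 and lost ones 1360. With regions of all widths, where wide regions join most places into one another, gained regions numbered 133, lost ones 659 and held ones 821. Without list A at 60 min gained regions numbered 1598 and lost ones 2359, and without list B they numbered 1135 and 2341. A region over 100 kb in the list or lists of the other condition touched 236 of the 541 gained regions (43.6%) and 973 of the 1950 lost regions (49.9%), with no upper limit on the width of such a region. Counting only those of 100 to 200 kb, they touched 13.1% of the gained and 11.3% of the lost regions.

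Gained regions ranked better in their lists than lost ones did in theirs, but a gained region had to be in 2 lists and a lost one in 1, and wider joined regions have more pieces from which a best rank is taken. Taking the best-scored region of each joined region, the median rank from the top was 45.04% down list A and 39.7% down list B at 60 min for gained regions, and 58.3% down the unstimulated list for lost regions. Partial regions stood at 73.0% and 75.7% down lists A and B at 60 min and 42.2% down the unstimulated list. Held regions ranked best, with medians of 29.0% in list A and 32.4% in list B at 60 min and 21.9% in the unstimulated list. The 10 gained regions with the best mean rank were 1.19 to 75.6 kb wide, on 6 chromosomes. All 10 were also held by the 120 min Pol II list, and 8 by all 4 later lists. Those 8 include the 5 described first below. Ranks given below are those of the best-scored region within a joined region, which can be narrower than the joined region.

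The best-ranked gained region was chr13:55290561-55292860, 2.30 kb wide. It stood at rank 9 in list A and rank 2 in list B at 60 min, with scales of 19 in A and 13 to 17 in B. The unstimulated list held no region up to 100 kb there, but a region of 211 kb in that list touched it. Acetylated histone H4 (H4ac), a mark of active chromatin, covered it in every list, with 2.19 and 2.30 kb in lists A and B at 60 min and 2.30 and 1.89 kb in the unstimulated lists A and B.

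The second, chr9:20819451-20838320, was 18.9 kb wide and was built of 7 regions in list A (rank 17) and 6 in list B (rank 11) at 60 min. Those regions covered 18.5 kb of it in each 60 min list and none in the unstimulated list, where the narrowest region touching it was 146 kb wide. H4ac covered 18.9 and 17.9 kb of it at 60 min, against 5.86 and 1.23 kb in the unstimulated lists. The p50 subunit of NF-κB was listed there in 3 of the 4 LPS lists of p50 and in none of the 3 unstimulated ones. Both H4ac lists of 60 min thus covered more of the region than both unstimulated ones.

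The third, chr2:129121391-129196940, was the widest of the 10 at 75.6 kb. Each 60 min list held a wide region of scale 27 there, at rank 350 in A and 363 in B. Narrower regions of lower scale lay near both ends. Together these regions covered 75.03 kb in A and 75.51 kb in B. The best ranks, 43 in A and 28 in B, belonged to the narrower regions at the right end, of scale 25 in A and 26 in B. H4ac covered 46.9 and 55.7 kb at 60 min, against 4.80 and 1.32 kb in the unstimulated lists. p50 was listed in 3 LPS lists and in 1 unstimulated list. The narrowest unstimulated Pol II region that touches it was 908 kb wide.

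The fourth, chr16:84703451-84723850, had no unstimulated Pol II region of any width. It was 20.4 kb wide with a single region of scale 24 in each 60 min list, at rank 32 in A and 51 in B. H4ac covered 14.1 and 15.8 kb of it at 60 min and was not listed there in either unstimulated list. No p50 list held it. It was the only 1 of the 10 where neither Pol II nor H4ac was listed without stimulation.

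The fifth, chr13:43880491-43907590, was 27.1 kb wide, at rank 49 in list A and 33 in list B at 60 min. H4ac covered 20.5 and 6.74 kb at 60 min, against 6.21 and 2.97 kb in the unstimulated lists, and p50 was listed in 2 LPS lists and in 1 unstimulated list. The sixth, chr5:91320301-91331580, had no unstimulated Pol II region of any width, yet H4ac covered 9.34 and 11.0 kb of its 11.3 kb at 60 min and all 11.3 kb in both unstimulated lists. It was held by the 120 min list and by list B of 240 min, and not by list A of 240 min or the 360 min list. H4ac cover therefore did not separate the conditions at every gained region: of the 10, 6 had more H4ac base pairs in both 60 min lists than in either unstimulated list, 1 had less, and 3 overlapped. In 6 of the 10 some unstimulated Pol II region over 100 kb touched the place.

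The best-ranked lost regions were narrower and stood lower in their list. The 10 were 1.41 to 13.5 kb wide, on 8 chromosomes, and none was touched by any of the 4 LPS lists of p50. Each of those p50 lists touched 0.308 to 2.15% of all lost regions and 1.16 to 7.90% of all joined regions. None among 10 is therefore no trait of the best-ranked lost regions. The first was chr17:84580671-84583250, 2.58 kb wide, a single region of scale 18 at rank 46 of the unstimulated list. No 60 min Pol II region of any width and no later Pol II list touched it. H4ac covered it in full in both 60 min lists, with 2.58 kb each, against 2.27 and 2.33 kb in the unstimulated lists. H4ac cover was thus no lower at 60 min at the place where Pol II was listed only without stimulation.

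The second, chr10:98723791-98734260, was 10.5 kb wide with a single region of scale 24 at rank 68. H4ac covered 9.59 kb in list A and none in list B at 60 min, against 10.0 and 9.52 kb in the unstimulated lists. The third, chr13:21826521-21840050, was 13.5 kb wide. Its best rank of 86 belonged to a narrow region of scale 15, and the wide region of scale 20 stood at rank 1659. H4ac lay over all 13.5 kb in list A and none in list B at 60 min, and over all 13.5 kb in both unstimulated lists. The 2 lists of H4ac at 60 min disagree at both places. The seventh, chr3:95789001-95801710, was 12.7 kb wide at rank 196 and was held by all 4 later Pol II lists. Of the 10 lost regions, 4 were in no later list and 2 in all 4. Some 60 min Pol II region over 100 kb touched 3 of the 10. H4ac base pairs were higher in both 60 min lists at 3 of the 10 and lower at 2, so cover by this mark had no single direction at them.

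**Figure D3:**
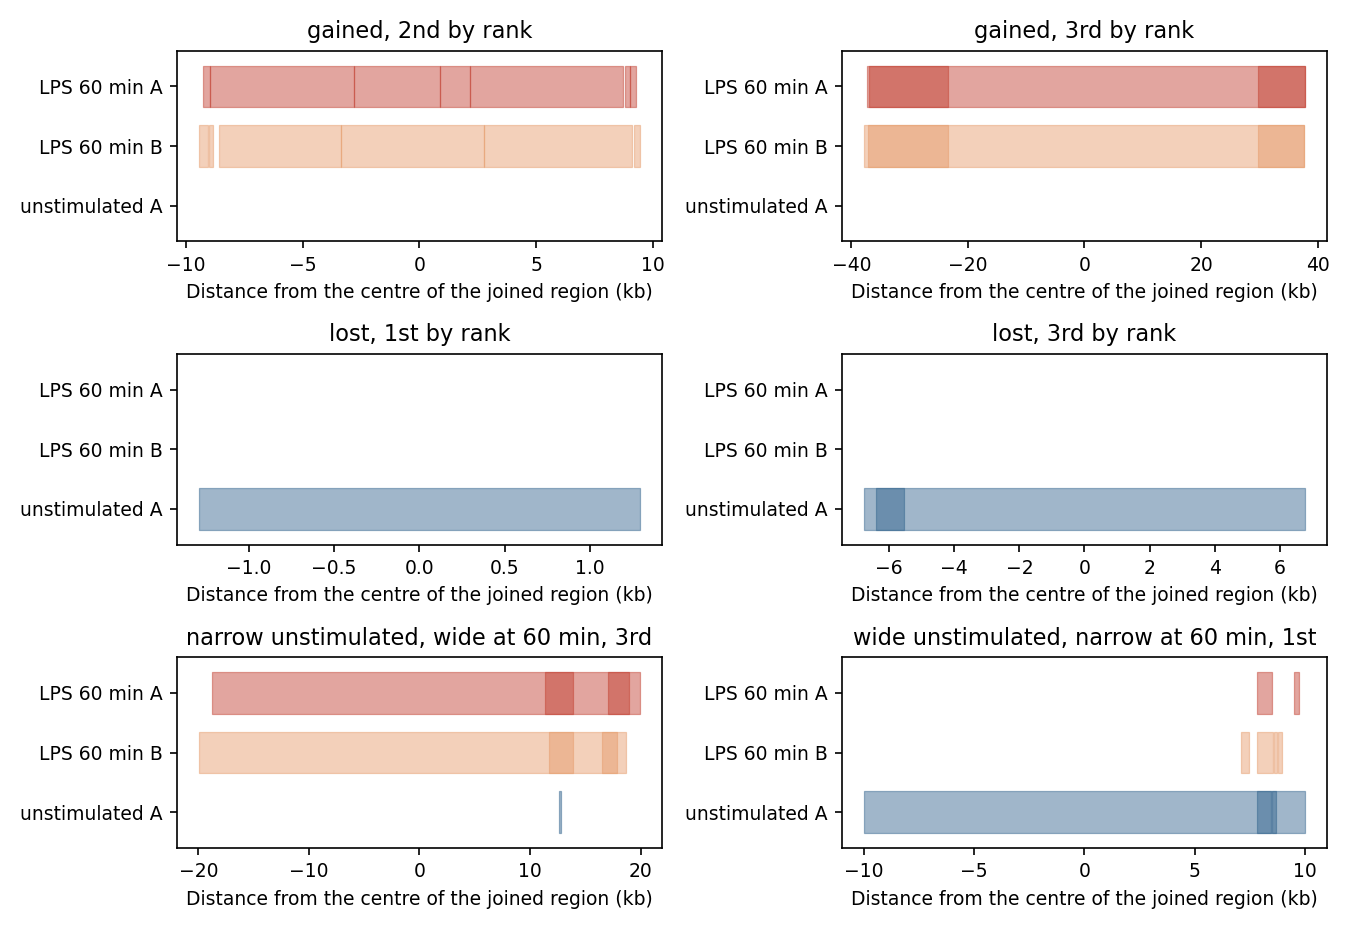
Positions of the listed Pol II regions up to 100 kb in 6 joined regions (horizontal axis, distance from the centre of the joined region in kb), with a row each for LPS 60 min A, LPS 60 min B and unstimulated A. Each bar is 1 region, and darker stretches are regions nested within wider ones. The top row shows gained regions of 18.9 and 75.6 kb, the middle row lost regions of 2.58 and 13.5 kb, and the bottom row regions of 39.8 and 20.0 kb whose cover differed between conditions.

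Held regions had the best ranks as a class, although the best-ranked gained region above stood as high in the 60 min lists as most of the 10 best-ranked held ones. The best-ranked held region, chr11:81848971-81862030, stood at rank 2 in list A and rank 3 in list B at 60 min, against rank 15 in the unstimulated list. It was covered over 12.9 kb in each 60 min list, against 6.37 kb in the unstimulated list, or 2.03 times as far in both. H4ac covered 13.1 kb of it in both 60 min lists, against 12.7 and 13.05 kb in the unstimulated lists. The eighth, chr17:35334151-35406030, stood at rank 4 in both 60 min lists and at rank 96 in the unstimulated list. Its cover hardly differed, at 65.3 and 57.7 kb at 60 min and 62.1 kb unstimulated, while H4ac covered 43.0 and 43.4 kb at 60 min, against 27.5 and 30.5 kb unstimulated. p50 was listed there in 3 LPS lists and in 2 unstimulated ones.

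Other held regions ranked higher without stimulation. chr5:143659291-143668480 was rank 20 in list A and rank 12 in list B at 60 min, and rank 1 in the unstimulated list, with 8.48 and 9.19 kb covered at 60 min and 8.48 kb unstimulated. chr19:5794061-5845600 was rank 27 in A and rank 30 in B at 60 min, and rank 4 unstimulated. List A covered 31.0 kb of it and list B 51.5 kb at 60 min, against 51.0 kb unstimulated, so the 60 min lists differed there from each other more than list B did from the unstimulated list. H4ac covered 20.0 and 17.9 kb of it at 60 min, against 36.8 and 42.8 kb unstimulated. All 10 of the best-ranked held regions were held by all 4 later Pol II lists. Ranks come from lists of different lengths and show no change by themselves.

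The widest gained regions exceeded 100 kb because separate regions were joined. The widest, chr12:72931281-73104610, was 173 kb wide, with 99.3 kb covered by list A and all of it by list B at 60 min, at ranks 2236 and 2639. It was untouched by any unstimulated Pol II region of any width. p50 was listed in 3 LPS lists and no unstimulated list. chr6:97756971-97917940, 161 kb wide, was covered over 156 kb in list A and 127 kb in list B, with p50 in 2 LPS lists and 1 unstimulated list. An unstimulated Pol II region of 228 kb touched it. Some unstimulated region over 100 kb touched 4 of the 5 widest gained regions. Some 60 min region over 100 kb touched 2 of the 5 widest lost ones, with a width of 109 kb at the widest of them. Of the 5 widest gained regions, 4 had p50 in at least 2 LPS lists, and none of the 5 widest lost regions (98.6 to 99.9 kb) was touched by any LPS list of p50. At least 2 LPS lists of p50 touched 6.62% of all joined regions. The widest gained regions, at 135 to 173 kb, were wider than the widest lost ones. These few regions therefore show no difference between gained and lost by themselves. The second widest lost region, chr2:103807911-103906900, was 98.99 kb wide and was touched by a 60 min region of 14628.5 kb. Its wide region of scale 29 stood at rank 6994 of the unstimulated list, and a narrower region of scale 21 at rank 2003. H4ac covered 15.9 and 0.75 kb of the joined region at 60 min and 4.83 and 4.04 kb unstimulated.

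At the 1637 held regions, Pol II cover was further in list B at 60 min than in the unstimulated list at 1008 (61.6%, 59.2 to 63.9%) and further in list A than in the unstimulated list at 872 (53.3%, 50.8 to 55.7%). List B was also further than list A at 1005 of them (61.4%, 59.0 to 63.7%). By this count the 60 min lists differed from each other about as often as list B differed from the unstimulated list. The median log2 ratio of covered base pairs was 0.03 for list A over unstimulated, 0.11 for list B over unstimulated and 0.05 for list B over list A. The quartiles of this ratio lay closest together for list B over list A, at -0.09 and 0.58. They were -0.56 and 0.91 for list A over unstimulated and -0.26 and 1.24 for list B over unstimulated. In sum, the held regions were covered over 43.1 Mb in list A and 49.6 Mb in list B at 60 min, against 41.1 Mb in the unstimulated list. Cover differed at least 2-fold from the unstimulated list at 388 regions upward and 324 downward in list A and at 463 upward and 212 downward in list B, and between list B and list A at 308 upward and 136 downward. With 1 unstimulated list, how much of this is spread between libraries was not tested.

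Taking both 60 min lists together, cover was further than unstimulated in both at 738 held regions (45.1%) and less in both at 494 (30.2%), and the 60 min lists went opposite ways or tied at the other 405 (24.7%). At 332 regions both 60 min lists covered at least 2 times the unstimulated base pairs, and at 152 at most 0.5 times. At 342 regions both edges lay further out in both 60 min lists, and at 674 a single edge did. Both edges lay further in at 213 regions and a single edge at 570. A single edge differed more often than both, whether outward or inward, but what unrelated edges alone would give was not computed. A region with a single edge further out can have its other edge further in, so these classes overlap.

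**Figure D4:**
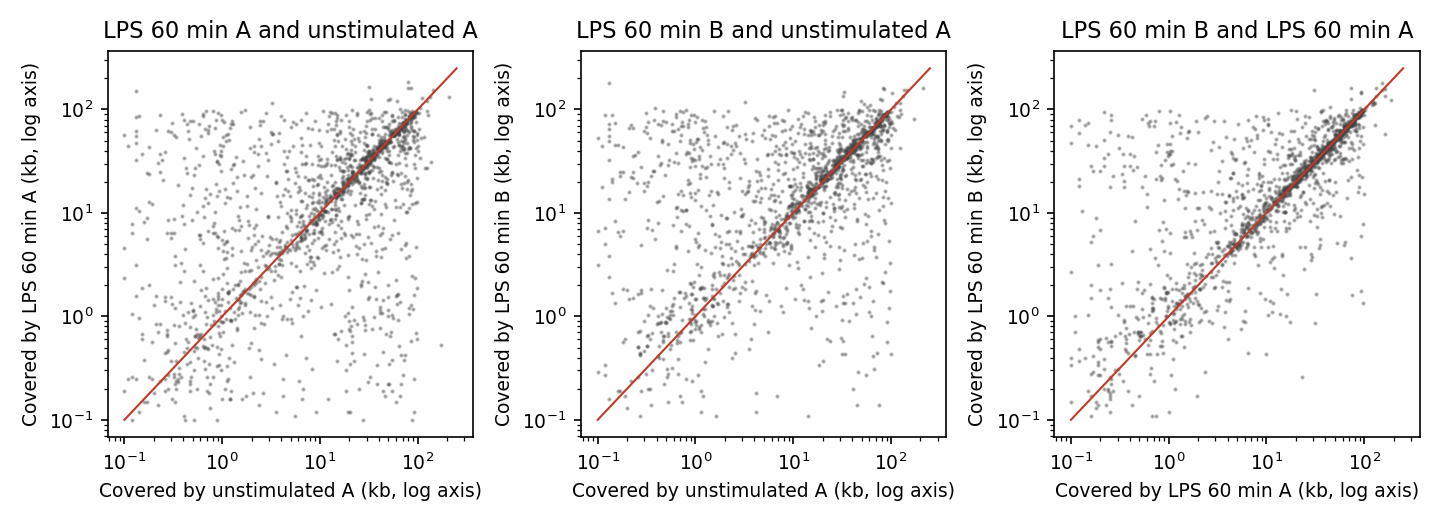
Base pairs covered within each of the 1637 held Pol II regions (kb, log axes) in LPS 60 min A and B against unstimulated A (left and middle) and in LPS 60 min B against LPS 60 min A (right). Each point is 1 joined region and the line marks equal cover. List B lies above the line at 61.6% of the regions against the unstimulated list and at 61.4% against list A, and list A at 53.3% against the unstimulated list.

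A subset went between narrow and wide. These classes were set after the lists had been examined. Cover was up to 3 kb in the unstimulated list and at least 10 kb in both 60 min lists at 120 held regions, and the reverse was seen at 46. Taking single lists, list A had 133 regions narrow unstimulated and wide at 60 min and 108 the other way, and list B had 181 and 59. Between the 60 min lists, 105 regions were narrow in A and wide in B, and 18 the other way. A shift of this kind toward wider cover in list B was therefore also seen within the 60 min condition.

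The clearest examples had nearly equal cover in both 60 min lists. chr12:87013921-87053750 was covered over 38.7 kb in list A and 38.6 kb in list B at 60 min, against 0.26 kb in the unstimulated list. The unstimulated list held a single region of scale 13 there, which lay within the part of the joined region where both 60 min lists had a narrow region as well. p50 was listed there in all 4 LPS lists and no unstimulated list, and H4ac covered 32.9 and 12.0 kb at 60 min, against 5.05 and 1.45 kb unstimulated. chr12:103145441-103217150 was covered over 71.7 and 61.3 kb at 60 min, against 1.23 kb unstimulated, with p50 in 3 LPS lists and no unstimulated list. chr4:150229031-150249800 was covered over 20.8 and 19.4 kb, against 0.25 kb unstimulated, and no p50 list held it. H4ac did not separate the conditions at the last 2 of these places, with 65.2 and 11.6 kb at 60 min and 26.4 and 23.7 kb unstimulated at chr12:103145441-103217150, and 18.9 and 16.5 kb at 60 min and 20.8 and 3.79 kb unstimulated at chr4:150229031-150249800. Of the 5 best-ranked regions of this kind, 2 had p50 in at least 2 LPS lists and 1 had more H4ac in both 60 min lists. Over all joined regions these shares were 6.62% and 13.6%.

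In the other direction, chr10:39960421-39980380 was covered over 0.91 kb in list A and 1.44 kb in list B at 60 min, against 20.0 kb in the unstimulated list. Its best ranks, 44 and 60 in the 60 min lists and 16 in the unstimulated list, all belonged to narrow regions of scale 15. The wide unstimulated region, of scale 27, stood at rank 931. chr13:23678011-23715080 was covered over 1.46 and 0.91 kb at 60 min, against 37.1 kb unstimulated. Its best ranks were 329 and 454 at 60 min and 25 unstimulated. Rank 25 belonged to a narrower region of scale 20, and the wide unstimulated region of scale 25 stood at rank 965. All 5 best-ranked regions of this kind were in all 4 later Pol II lists. Of these 5, 1 had p50 in at least 2 LPS lists, against 6.62% of all joined regions.

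The p50 lists, which played no part in choosing the Pol II regions, met gained regions far more often than lost ones. At least 2 of the 4 LPS lists of p50 touched 6.62% of all joined regions. They touched 74 gained regions (13.7%, 11.0 to 16.8%), 23 lost ones (1.18%, 0.787 to 1.76%) and 215 held ones (13.1%, 11.6 to 14.9%). The gained share was thus above the background and above the lost share, and lay within the interval of the held share. With the further condition that none of the unstimulated p50 lists held the place, these were 4.5% of all joined regions, 9.43% of gained, 0.769% of lost and 8.80% of held ones. Every single p50 list gave the same order of gained over lost. LPS list A touched 17.6% of gained and 1.08% of lost regions, list B 12.0% and 1.38%, list C 14.8% and 2.15%, and list D, the shortest with 324 regions, 2.59% and 0.308%. The 3 unstimulated p50 lists touched 1.85 to 3.70% of gained and 0.256 to 0.410% of lost regions, so gained regions met p50 more often than lost ones in the lists made without LPS too.

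Wide regions have more room to be touched, and gained regions were wider than lost ones. Within each of the 5 width classes the p50 share was nonetheless higher in gained regions. It was 9.09% of 44 gained and 0.394% of 1016 lost regions up to 1 kb, 12.3% of 130 gained and 0.465% of 215 lost regions of 10 to 30 kb, and 16.7% of 210 gained and 5.29% of 227 lost regions over 30 kb. The Wilson intervals of gained and lost regions were apart in all 5 classes, though these intervals do not cover spread between libraries. At 3 to 10 kb, for example, they were 7.83 to 24.0% of 71 gained and 0.729 to 4.71% of 214 lost regions. When a single 60 min Pol II list defined the gained regions, the share was lower, at 7.13% without list A and 7.49% without list B, against 1.31% and 1.37% of the lost regions.

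The p65 subunit, in the list X of 60 min, touched 4.66% of all joined regions. It touched 3.14% of gained regions (1.97 to 4.97%), 2.77% of lost ones (2.13 to 3.60%) and 8.43% of held ones (7.18 to 9.88%). List A of p65 at 60 min, with 2285 regions, touched 1.45% of all joined regions, 1.66% of gained, 0.667% of lost and 2.87% of held regions. The unstimulated p65 list touched 1.70% of all joined regions, 0.739% of gained, 1.44% of lost and 2.32% of held regions. In list X the gained share was not above that of all joined regions, the intervals of gained and lost regions overlapped, and the 2 lists of 60 min met few of the changed regions. The limit of 10 kb kept 487 of the 782 regions of list X and 2257 of the 2285 of list A. List A nonetheless touched 80 joined regions, against 257 for list X, so the 2 p65 lists of 60 min differed from each other.

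H3K27me3 is the mark left by Polycomb repressors. Only its regions up to 100 kb were counted, 3108 of the 4280 in the unstimulated list, so wider blocks are left out. Counted so, H3K27me3 was listed in unstimulated cells at 3.79% of all joined regions. It was listed at 4.99% of the regions gained at 60 min (3.45 to 7.16%), 2.56% of the lost ones (1.95 to 3.36%) and 4.89% of the held ones (3.94 to 6.04%). The share of all joined regions lies within the gained interval. Among regions over 30 kb the shares were 5.24% of gained, 7.49% of lost and 7.23% of held regions, with overlapping intervals. The higher gained share over all widths was thus not seen among the widest regions.

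H4ac lay at most Pol II places in both conditions. Both H4ac lists of 60 min touched 85.6% of gained, 72.2% of lost and 96.9% of held regions, against 82.0% of all joined regions, and both unstimulated H4ac lists touched 77.3%, 85.9% and 97.3%, against 85.5% of all. The gained share at 60 min and the lost share unstimulated were thus close to those of all joined regions. Most gained regions thus already had H4ac in the unstimulated lists, and most lost regions still had it at 60 min. The order of gained over lost in the 60 min H4ac lists turned round when list A of Pol II was left out, with 63.8% of gained and 74.6% of lost regions.

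The length covered by H4ac separated the classes more than its presence did. More H4ac base pairs in both 60 min lists than in either unstimulated list were found in 13.6% of all joined regions, and less in 11.9%. Gained regions had more at 141 (26.1%, 22.5 to 29.9%) and less at 46 (8.50%, 6.44 to 11.2%). Lost regions had more at 140 (7.18%, 6.12 to 8.41%) and less at 216 (11.1%, 9.76 to 12.5%), and held regions more at 312 (19.1%) and less at 278 (17.0%). The share with more was highest among gained regions and the share with less highest among held ones. These shares count H4ac regions up to 100 kb. With a limit of 10 kb, more H4ac was found in 27.0% of gained and 3.897% of lost regions and less in 13.9% and 22.1%. The shares of all joined regions at 10 kb are not given here, so those 4 values cannot be set against a background. Wide regions again showed smaller differences. Over 30 kb, H4ac was more at 29.0% of gained (23.3 to 35.5%) and 21.1% of lost regions (16.3 to 26.9%), whose intervals overlapped, whereas up to 1 kb it was more at 18.2% of gained and 1.67% of lost regions. The H4ac lists of 60 min were shorter, with 23682 and 15392 regions, against 28522 and 21058 unstimulated.

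**Figure D5:**
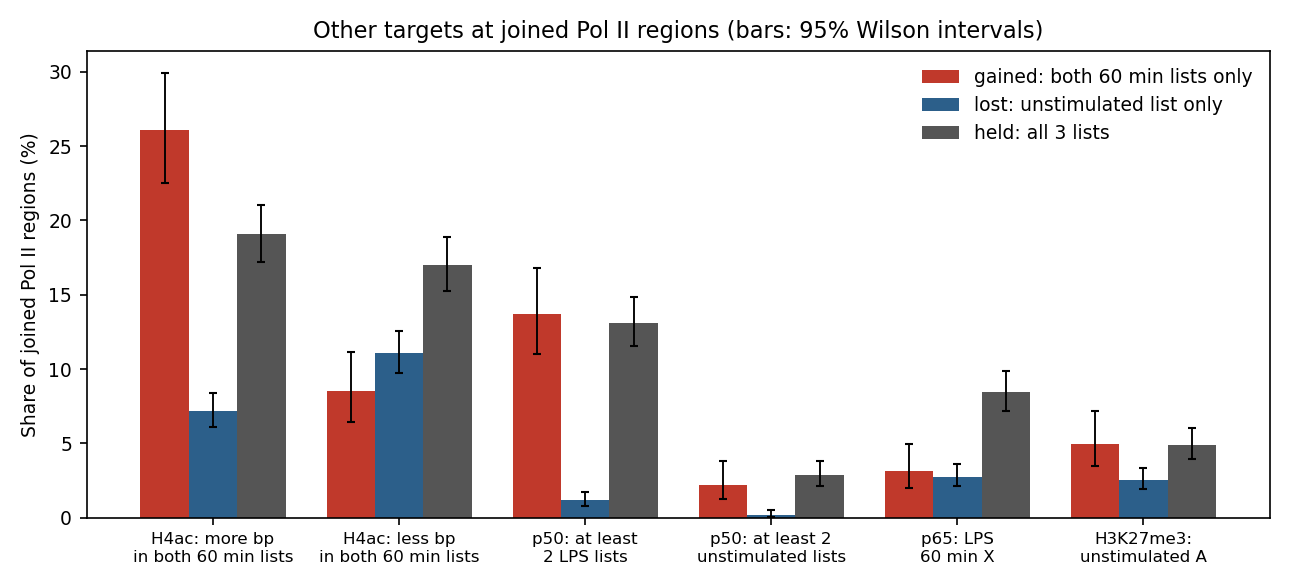
Share of gained, lost and held Pol II regions (vertical axis, %) with more or less H4ac cover in both 60 min lists, and touched by p50, p65 and H3K27me3 lists, with 95% Wilson intervals as error bars. p50 of LPS met 13.7% of gained, 1.18% of lost and 13.1% of held regions, and H4ac cover was more in 26.1%, 7.18% and 19.1%.

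Held regions that were covered further at 60 min differed in the same readouts from those covered less. At least 2 LPS lists of p50 touched 20.5% of the 332 regions with at least 2 times the cover in both 60 min lists (16.5 to 25.1%), and 9.21% of the 152 with at most 0.5 times (5.57 to 14.9%). H4ac was more in both 60 min lists at 25.3% of the regions covered further (20.9 to 30.2%), against 12.5% of those covered less (8.15 to 18.7%). It was less at 12.95% of the regions covered further (9.76 to 17.0%), against 23.7% of those covered less (17.6 to 31.0%). Of all joined regions, 6.62% were touched by at least 2 LPS lists of p50, 13.6% had more H4ac and 11.9% had less. The 12.5% with more H4ac and the 12.95% with less were thus near those shares. The intervals of the 2 held sets were apart in all 3 comparisons, though they do not cover spread between libraries. For p65 of list X the intervals overlapped, at 8.73% and 11.2%, against 4.66% of all joined regions.

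Later Pol II lists, also not used to define the classes, held gained regions more often than lost ones. The 120 min list held 54.2% of gained, 13.5% of lost and 70.9% of held regions, against 37.4% of all joined regions. At 240 min, list A held 48.2% of gained, 17.5% of lost and 73.1% of held regions, against 40.8% of all, and list B 62.7%, 21.2% and 81.8%, against 47.6% of all. The 360 min list, the shortest with 2948 regions, held 25.5% of gained, 12.1% of lost and 56.8% of held regions, against 28.5% of all, so its gained share was not above that of all joined regions. No later list held 135 of the gained regions (25.0%) and 1299 of the lost ones (66.6%), and all 4 held 105 gained and 79 lost regions. Gained regions were wider and so had more room to be touched. Within width classes, added after the lists were examined, no later list held 29.5% of gained and 72.2% of lost regions up to 1 kb, 23.8% and 54.4% at 10 to 30 kb, and 27.6% (22.0 to 34.0%) and 53.7% (47.2 to 60.1%) over 30 kb. In the 360 min list the shares over 30 kb were close, at 23.3% of gained (18.1 to 29.5%) and 21.1% of lost regions (16.3 to 26.9%), with overlapping intervals. These later lists come from other libraries, and the gained regions were chosen from LPS lists in 2 libraries and the lost ones from 1. By their titles, the 120 and 360 min lists share a date with list A of 60 min. List B of 240 min shares a date with list B of 60 min. The unstimulated list shares its date with no other Pol II list, so LPS and list date cannot be told apart here.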

How the data were processed

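ChIP-seq region lists deposited by the authors were used as they stand, 1 per library. Each line holds a position, a scale number and a score that the authors deposited with no stated definition, so scores only ranked regions within a list. Build mm9 is named in the submitters' processing notes; which aligner, caller and thresholds made the lists is not given in the sources used here.

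Regions up to 100 kb of the 3 Pol II lists were joined at any overlap of 1 bp or more, and a list held a joined region on the same condition. Other targets were counted the same way, up to 100 kb for H4ac and H3K27me3 and up to 10 kb for p50 and p65. The H4ac limit was raised from 10 kb after the lists were examined, because wide H4ac regions span many strong Pol II regions. The joining and the counts were tested on simulated lists with known answers. Named regions are the 10 gained, lost and held ones with the best mean rank within their lists, and the 5 widest gained and lost; the 5 best-ranked regions that were narrow in one condition and wide in the other were added later. The members and lists were chosen with earlier results of these data known. Python 3.11.15, numpy 2.4.6, pandas 2.3.3 and scipy 1.17.1 were used. Alternatives covered the width limit, overlap, list length, score, gaps and leaving out a list.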

Additional observations from a re-analysis of the deposited data

How the results depend on the processing

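Of 123 values under other settings, for 18 results, 74 stayed within the reported value's interval or replicate spread, or for counts within 1.5 times. The Jaccard index had no interval or spread, so each of its other values was counted as outside. This includes the index of 0.554 with all widths, which is the same as reported. For the covered length, the values that leave out a 60 min list could only count as within the spread. That spread comes from the same 2 lists. With Pol II regions up to 10 kb, held regions numbered 932, the Jaccard index of the 60 min lists was 0.325, more H4ac was found at 22.0% of gained and 4.16% of lost regions and less at 9.17% of lost ones, p50 touched 10.8% of gained, and H3K27me3 3.12% of gained and 1.43% of lost regions. Up to 1 kb, gained regions numbered 174 and held ones 211, the covered length at 60 min was 0.520 of the unstimulated one, against 1.04 as reported, and the Jaccard index was 0.119. With all widths, gained, lost and held regions numbered 133, 659 and 821, the covered length was 1.25 of the unstimulated one and the index 0.554. With a list holding a region only when it covered at least 50% of it, held regions numbered 721, H4ac of both 60 min lists touched 90.8% of gained and 75.7% of lost regions, p50 18.1% and 1.92%, and p65 3.75% of lost. With the better-scored 50% of each list, held regions numbered 852, H4ac touched 79.3% of lost, p50 17.0% of gained and H3K27me3 1.80% of lost regions. With equal list lengths the index was 0.577, H4ac touched 74.7% of lost regions and 51.4% of held regions were covered further at 60 min. Up to 200 kb, chosen after seeing the data, the index was 0.590. With H4ac up to 10 kb, no share of all joined regions is given here. More H4ac was then found at 3.897% of lost regions, and less at 13.9% of gained and 22.1% of lost. Both 60 min H4ac lists touched 73.4% of gained and 59.1% of lost regions. The cause was not tested.

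Leaving out either 60 min list gave 1135 to 1598 gained, 2341 to 2359 lost and 1981 to 2062 held regions, and a covered length of 0.886 to 1.19 of the unstimulated one. H4ac was more at 16.7 to 18.5% of gained and 6.91 to 7.05% of lost regions, and less at 5.82 to 6.70% and 11.1 to 11.2%; both 60 min H4ac lists touched 63.8 to 76.0% of gained and 73.1 to 74.6% of lost, the lower gained value, without list A, being under the lost one. p50 touched 7.13 to 7.49% of gained and 1.31 to 1.37% of lost, p65 2.13 to 2.29% and 2.95 to 2.97%, and H3K27me3 3.35 to 4.82% and 2.26 to 2.37%. Held regions covered further made up 50.1 to 60.6%. The only unstimulated list could not be left out. Genes at Pol II regions, planned with an alternative, were not run. No paired analysis was possible because the conditions share a single replicate letter and no test was run.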
